A study of Homo sapiens with 6 samples.

Results

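The cytosolic ribosomal protein genes were read in the chromatin profiles of SON and HMGB2 in IMR90 cells. Members were the protein-coding genes of the RefSeq table of GRCh38.p14 on chromosomes 1 to 22 and X whose symbol is RPL or RPS followed by a number and optional letters, together with RPLP0, RPLP1, RPLP2 and RPSA. The kinases named RPS6K were not taken. The rule gave 82 genes of the 19974 protein-coding genes on these chromosomes, 50 of the large (60S) subunit and 32 of the small (40S) subunit. Each gene was given every peak that touched its span or the 5 kb on either side. The rule used symbols and positions, and no measured value chose the members.

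IMR90 is a line of human embryonic lung fibroblasts, and all groups come from it. Chromatin was recovered with an antibody and tagged by ChIPmentation, in which a transposase adds the sequencing adapters on the beads. For SON there were 3 groups, which were untreated cells, cells given ICM for 3 days and cells given ICM for 6 days, and the labels leave ICM unexplained. The HMGB2 group was untreated. Formaldehyde was the one fixative in the SON groups, whereas HMGB2 samples saw EGS first, so target and fixation cannot be told apart. These 4 groups had 1 deposited peak list each. The HMGB2 input and the sample with DSG in its name were not analysed here. The title of the series places the work in senescent cells, their nuclear speckles and their splicing. With 1 list per group there was no test between conditions, and every share below is a description with a 95% exact binomial (Clopper-Pearson) interval that covers counting error over genes only.

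Ribosomal proteins are needed in matched amounts, and their genes are among the most strongly transcribed of a growing cell. Their promoters are compact, and their messenger RNAs begin with a C followed by a run of pyrimidines, the 5′ terminal oligopyrimidine tract, through which translation of the whole set is adjusted to growth signals. Many of the genes also carry small nucleolar RNAs (snoRNAs) in their introns, which guide modification of ribosomal RNA. SON is a scaffold protein of nuclear speckles, bodies that store splicing factors and lie beside highly transcribed genes. HMGB2 is an abundant DNA-bending protein of the high mobility group whose loss from chromatin accompanies senescence.

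The promoters of 65 members were in the RefSeq promoter table of GRCh38.p14, and 10 of these had more than 1 annotated start. The other 17 members, among them RPL23A, RPL5, RPL7, RPL8 and RPS2, had no entry. Shown first are 4 promoters of members with a peak in every list, chosen among those with the strongest peaks, and then 2 of members with no peak in any list, so that the start regions can be compared. Each runs 5′ to 3′ on the gene strand over 150 bases, 130 before the annotated start and 20 from it on. Capitals mark the longest pyrimidine run that covers a base within 5 of the start.
RPS12: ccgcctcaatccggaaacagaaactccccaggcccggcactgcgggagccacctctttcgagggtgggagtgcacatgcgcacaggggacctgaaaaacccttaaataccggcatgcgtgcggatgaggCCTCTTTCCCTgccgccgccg
RPL18: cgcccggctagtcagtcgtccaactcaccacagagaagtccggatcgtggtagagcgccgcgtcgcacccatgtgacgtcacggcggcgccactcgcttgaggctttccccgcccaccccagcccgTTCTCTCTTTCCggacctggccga
RPL36: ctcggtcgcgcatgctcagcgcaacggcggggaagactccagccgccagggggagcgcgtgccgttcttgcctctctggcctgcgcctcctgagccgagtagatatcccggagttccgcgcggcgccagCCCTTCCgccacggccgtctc
RPL13A: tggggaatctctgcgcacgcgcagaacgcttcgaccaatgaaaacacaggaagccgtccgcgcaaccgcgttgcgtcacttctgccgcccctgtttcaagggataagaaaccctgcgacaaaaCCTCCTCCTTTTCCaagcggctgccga
RPL24: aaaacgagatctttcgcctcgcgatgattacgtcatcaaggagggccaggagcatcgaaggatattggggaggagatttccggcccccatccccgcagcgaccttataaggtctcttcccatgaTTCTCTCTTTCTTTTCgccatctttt
RPL39: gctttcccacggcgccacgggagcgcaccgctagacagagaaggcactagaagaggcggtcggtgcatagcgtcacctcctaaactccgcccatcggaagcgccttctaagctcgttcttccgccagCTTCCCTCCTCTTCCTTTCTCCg
In GRCh38.p14 these stretches are chr6:132814439-132814588 on the plus strand for RPS12, chr19:48619159-48619308 on the minus strand for RPL18, chr19:5690165-5690314 on the plus strand for RPL36 and chr19:49487478-49487627 on the plus strand for RPL13A. Those of RPL24 and RPL39 are chr3:101686699-101686848 and chrX:119791611-119791760, both on the minus strand.

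The pyrimidine run at the start was 11 bases long in RPS12, 12 in RPL18, 7 in RPL36, 14 in RPL13A, 16 in RPL24 and 22 in RPL39. RPL24 and RPL39, without a peak, thus had the longest runs of the 6 shown. The 6 were picked, and run length was not compared by peak presence over the 65 members. Over the 65 members the median run was 11 bases and 52 members (80%) had at least 8, against a median of 4 bases and 15.4% of 15812 protein-coding genes in the table. The letters CTTT, beginning from 3 bases before to 3 after the start on the gene strand, were found in 34 of 65 members (52.3%, 39.5 to 64.9%) and in 4.98% of all protein-coding genes. The other motifs were searched on both strands of the 300 bases around each start. CCGGAAG, bound by ETS family factors, was found in 23 members (35.4%, 23.9 to 48.2%) and in 16.5% of all genes. AAGATGGC, bound by YY1, was found in 6 members (9.23%) and 4.67% of all genes, and the TATA box letters TATAAA in 6 members (9.23%) and 12.4% of all genes. GGGCGG, bound by SP factors, was in 39 members (60%) and 64.2% of all genes, and the E-box CACGTG in 4 members (6.15%) and 10.9% of all genes. These matches describe letters in a window and not binding.

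In untreated cells 78 of the 82 ribosomal protein genes had a SON peak (95.1%, 88.0 to 98.7%), against 57.1% of all protein-coding genes. At 3 days 62 had one (75.6%, 64.9 to 84.4%), against 41% of all genes. At 6 days 24 had one (29.3%, 19.7 to 40.4%), against 21.5% of all genes, a background that lies inside the interval of the members. HMGB2 peaks were present at 38 members (46.3%, 35.3 to 57.7%), against 23.3% of all genes. The share of all genes thus lay below the interval of the members in untreated cells, at 3 days and for HMGB2, and within it at 6 days. Ribosomal protein genes are short, and a long gene has more room for a peak. Among the 10688 protein-coding genes no longer than the longest member, RPS29 with 27.7 kb, the shares were 47.9%, 34.3%, 17.4% and 21.3% in the same order of lists, and each of these, the 6-day share included, lay below the interval of the members. With no flank around the gene the 6-day share of members was 28.0% (18.7 to 39.1%), against 17.1% of all genes, which also lay below the interval. For the 70 members off chromosome 19 the 6-day share was 22.9% (13.7 to 34.4%) with the 5 kb flank. The shares of all genes off that chromosome, 20.7%, and of those no longer than RPS29, 15.9%, lay inside this interval.

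**Figure D1:**
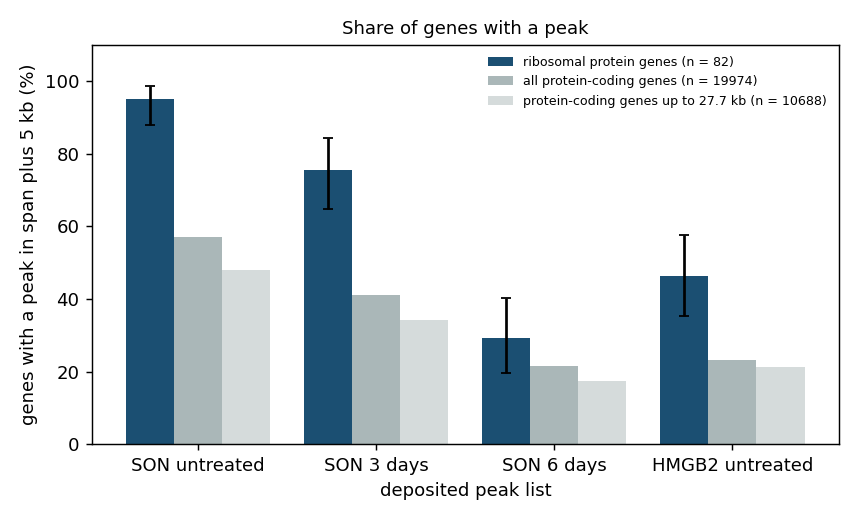
Percentage of genes (vertical axis) with a peak in the span plus 5 kb in each of the 4 deposited lists (horizontal axis), for the 82 ribosomal protein genes, all 19974 protein-coding genes and the 10688 no longer than 27.7 kb; error bars are 95% exact binomial intervals. The members stand at 95.1%, 75.6%, 29.3% and 46.3%, and only at 6 days does their interval take in the share of all genes, 21.5%.

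The lists differ in length, with 22216, 11028 and 5481 SON peaks on these chromosomes from untreated cells to 6 days and 5992 HMGB2 peaks, and their depth is unknown. When each list was reduced to its 5481 strongest peaks, SON peaks remained at 54 untreated members (65.9%), 49 after 3 days (59.8%) and 24 after 6 days (29.3%). All protein-coding genes then stood at 26.2%, 27.2% and 21.5%. Matching the number of peaks does not match depth. Where only peaks with a global irreproducible discovery rate (IDR) up to 0.05 were kept, the members stood at 84.1%, 56.1% and 10.98%, against 45.0%, 24.0% and 5.02% of all genes. The IDR compares 2 replicates, whose deposited values were equal at 56.0%, 28.9% and 9.47% of the SON peaks in list order. How they were made is not stated, so these shares may not be comparable between lists.

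Of the 78 members with an untreated SON peak, 62 also had one at 3 days (79.5%, 68.8 to 87.8%), against 70.2% of all genes with an untreated peak. At 6 days 24 of the 78 had one (30.8%, 20.8 to 42.2%), against 37.2%. Both backgrounds lie inside the intervals of the members. No member had a SON peak at 6 days or at 3 days without one in untreated cells, and the 24 genes of the 6-day list all had one at 3 days. Over all genes, 97.8% of those with a 3-day peak and 98.6% of those with a 6-day peak also had an untreated one, so these counts are near the background. A peak in all 3 SON lists was thus found at 24 members (29.3%), against 20.3% of all genes, and a peak in all 4 lists at 19 members (23.2%, 14.6 to 33.8%), against 10.6%. Only 3 members had no peak in any list (3.66%, 0.761 to 10.3%), against 40.3%. At least 2 peaks were given to 24 members in untreated SON (29.3%), against 22.6% of all genes, to 13 at 3 days (15.9%), against 9.77%, to 4 at 6 days (4.88%), against 3.37%, and to 9 for HMGB2 (11%), against 6.11%.

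The members fell into 8 combinations of lists. The most frequent held 22 genes with SON peaks in untreated cells and at 3 days only, among them RPL3, RPS6, RPS14, RPS19, RPS4X and RPSA. Next came the 19 genes with a peak in every list, among them RPL13A, RPL18, RPL23A, RPL27, RPL28, RPL35A, RPL36, RPL5, RPLP0, RPS12, RPS2 and RPS29. In 16 genes HMGB2 was joined by SON in untreated cells and at 3 days, and 14 genes, among them RPL26, RPL4, RPL6 and RPS3, had an untreated SON peak alone. RPL10, RPL19, RPL22, RPL32 and RPL8 had a peak in every SON list and none of HMGB2. RPL35 and RPL36AL had an untreated SON peak and an HMGB2 peak, and 1 gene had an HMGB2 peak only.

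**Figure D2:**
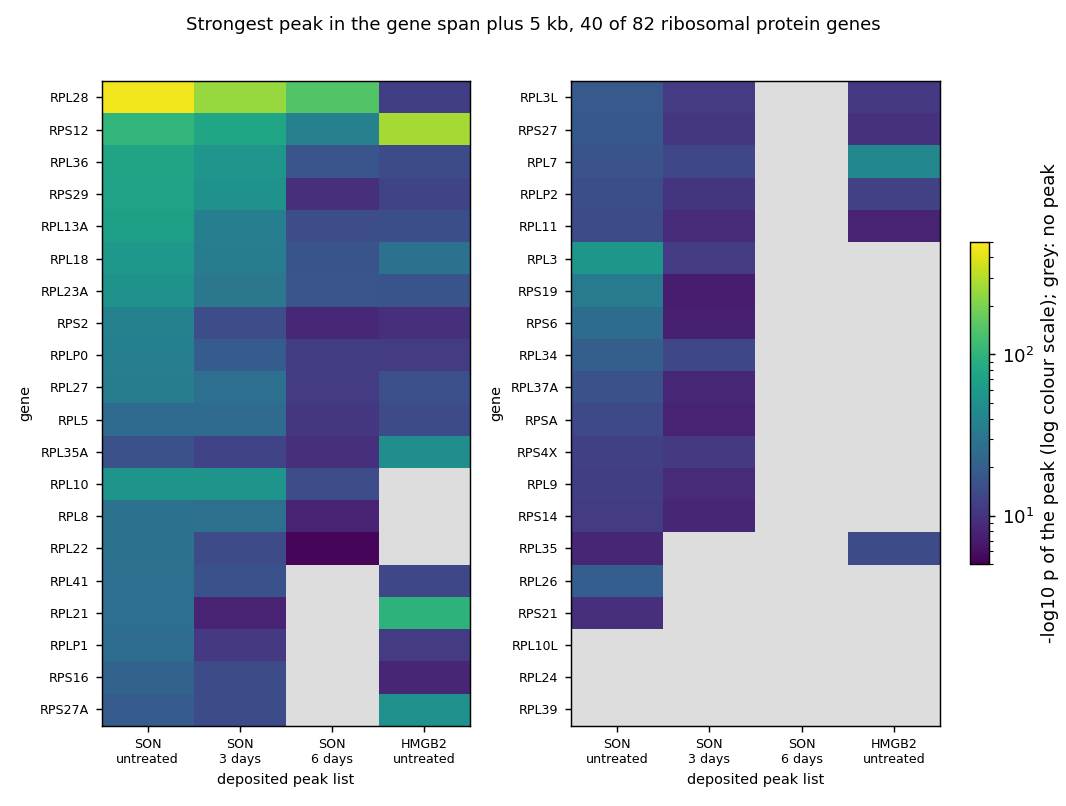
The −log10 p of the strongest peak of 40 of the 82 genes (rows), those described in the text, in each of the 4 lists (columns) as colour on a log scale, with grey for no peak; genes are sorted by the number of lists and then by the untreated SON value. The 6-day column is coloured in 15 genes, and RPL28 and RPS12 stand at the top with 453 and 103.5 in untreated cells.

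Strength was read as the authors' −log10 p of each peak, which in SON lists is the lower of the values of 2 replicates. It was ranked only within its own list, because depth and length differ between lists. In the untreated SON list the strongest peak of a member had a median percentile of 87.6 (80.9 to 90.3, binomial interval of the median) over the 78 genes with a peak, against 72.1 over all 11401 protein-coding genes with one. At 3 days the medians were 73.5 (63.1 to 78.5) and 66.7, at 6 days 67.8 (48.6 to 90.5) and 60.2, and for HMGB2 71.8 (52.0 to 85.4) and 59.8. In the last 3 lists the median of all genes lay inside the interval of the members. The top 10% of the list held the strongest peak of 32 of 78 members in untreated cells, 14 of 62 at 3 days, 8 of 24 at 6 days and 9 of 38 for HMGB2. Over all protein-coding genes with a peak the shares were 23.3%, 18.9%, 17.0% and 15.1%.

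**Figure D3:**
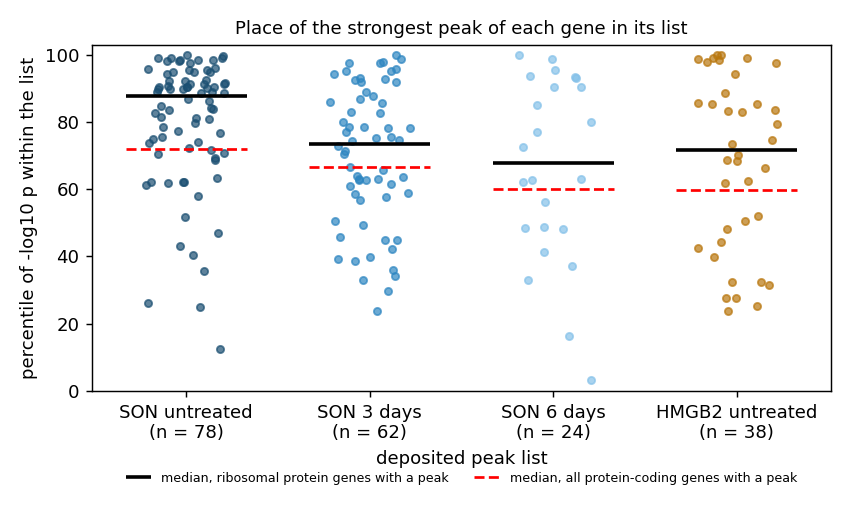
Percentile of −log10 p within its list (vertical axis) of the strongest peak of each member that has one, by list (horizontal axis), with the median of the members (black) and of all protein-coding genes with a peak (dashed red). The black line is at 87.6 in untreated cells and between 67.8 and 73.5 in the other lists.

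The members found again later had the higher median untreated value. Median untreated −log10 p was 25.3 for the 62 genes with a 3-day peak (11.2 to 453) and 11.1 for the 16 without (6.24 to 19.8). It was 36.2 for the 24 genes with a 6-day peak (15.8 to 453) and 17.9 for the 54 without (6.24 to 57.5). The ranges overlap at both times. The same medians over all protein-coding genes were not computed, so this difference does not set the members apart. RPL3, a core protein of the peptidyl transferase centre of the large subunit, had the strongest untreated peak missing at 6 days, with a −log10 p of 57.5. RPL35A had the weakest one that was found there, with 15.8. Across the members with a peak in both lists, the values had a Spearman correlation of 0.69 between untreated cells and 3 days (n = 62 genes) and of 0.77 between untreated cells and 6 days (n = 24 genes). Between untreated SON and HMGB2 it was 0.11 (n = 37 genes). These values are of the strongest peak in each window, which can lie at different places in the lists compared. At RPL23A, for example, the HMGB2 peak lay over NEK8 and the SON peak did not. The same correlations over all genes were not computed. Genes are not independent samples, and the lists share the sequence, mappability and openness of each promoter.

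RPL28, a protein of the large subunit, held the strongest SON peak of the set in every SON list. Its −log10 p was 453 in untreated cells, rank 8 of the list, 246 at 3 days, rank 21, and 142 at 6 days, rank 7. The untreated peak covered chr19:55385210-55386051 with its summit 129 bp upstream of the annotated start, and a start of TMEM238 lay within 1 kb of it. Both replicates gave 453 in untreated cells and 246 at 3 days, and at 6 days they gave 245 and 142. HMGB2 had 11.8 there, at rank 1795. A second SON peak given to RPL28, with 43.2, 24.1 and 12.1, lay beside the start of UBE2S.

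RPS12, a protein of the small subunit, combined strong SON peaks with the strongest HMGB2 peak of the whole list. SON gave a −log10 p of 103.5 in untreated cells (rank 97), 76.0 at 3 days (rank 129) and 37.3 at 6 days (rank 63), while HMGB2 gave 267 with a 15.2-fold enrichment (rank 1). The replicates of the SON peak were equal in untreated cells, 76.0 and 177 at 3 days, and 49.4 and 37.3 at 6 days. The summits lay at −186, −194 and −214 bp from the start for SON and at −161 bp for HMGB2, just upstream of the stretch printed above. The peaks also overlapped an uncharacterised non-coding gene, LOC107986644. RPS12 holds 3 snoRNA genes, SNORA33, SNORD100 and SNORD101.

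RPL36 of the large subunit followed with SON values of 73.6, 55.2 and 16.9 and an HMGB2 value of 14.4. RPL18 had 58.5, 35.5 and 16.4 and an HMGB2 value of 28.2, and its peak also overlapped SPHK2, the gene of a sphingosine kinase. RPL13A, which hosts SNORD32A, SNORD33, SNORD34 and SNORD35A, had SON values of 69.1, 36.3 and 14.9 at its own start. The HMGB2 peak at the RPL13A start had 8.69. RPL23A, with 4 snoRNA genes, had SON values of 53.5, 31.2 and 16.8. The strongest HMGB2 peak given to RPL23A, with 16.5, lay over NEK8. Those that overlapped its strongest untreated SON peak had 12.6 and 7.30, and only the weaker touched the gene span. RPL27 had 34.5, 26.8 and 11.1. These genes, with RPL5, RPL28 and RPS12, are among the 10 members with the highest mean percentile over the 4 lists.

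RPL5 and RPL11 form with 5S ribosomal RNA the particle that binds MDM2 when ribosome assembly fails. RPL5 had SON values of 24.8, 24.9 and 10.4 and an HMGB2 value of 14.6. RPL11 had 14.7 in untreated cells, 8.65 at 3 days, no peak at 6 days and an HMGB2 value of 7.79. RPL26, a protein of the large subunit, had 19.6 in untreated cells and no peak in any other list. Thus of these 3 genes RPL5 alone had a peak in every list. RPS19 and RPS14 are small-subunit genes whose loss causes anaemia. RPS19 had 33.9 in untreated cells and 7.08 at 3 days, the weakest of the 62 strongest peaks there, with a global IDR of 0.447. RPS14 had 11.2 and 8.17. Neither had a 6-day or an HMGB2 peak.

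RPS6, the substrate of the S6 kinases, had SON values of 25.6 in untreated cells and 7.45 at 3 days and no other peak. RPSA, also known as a laminin receptor, had 13.7 and 7.91 and no other peak. The stalk proteins, which recruit elongation factors, were RPLP0, RPLP1 and RPLP2. RPLP0 had 36.3, 18.98 and 11.5 and an HMGB2 value of 11.4. RPLP1 had 26.0 and 10.8 and RPLP2 15.2 and 9.97 in the first lists, both without a 6-day peak, and their HMGB2 values were 11.2 and 12.4. RPL10 on the X chromosome, needed for subunit joining, had 53.9, 54.0 and 14.8 without HMGB2. RPS4X on the same chromosome had 12.1 and 10.7. Of the 4 members on X, 3 had an untreated SON peak, 2 a 3-day peak, 1 a 6-day peak and 0 an HMGB2 peak. The intervals are wide, 19.4 to 99.4% for untreated SON and 0 to 60.2% for HMGB2. Shares over all genes on X were not computed, so these counts do not set X apart.

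By the strongest peak given to each gene, HMGB2 ranked the members in another order than SON. After RPS12 its strongest peaks were at RPL21 with 98.7 and a 12.3-fold enrichment (rank 9), RPS27A with 50.7 (rank 55), RPL35A with 47.7 (rank 60) and RPL7 with 43.1 (rank 80). In untreated cells the SON values of these 4 genes were 26.7, 19.2, 15.8 and 16.3. RPS27A encodes a fusion of ubiquitin with a small-subunit protein, and its peak also spans the start of CLHC1. The RPL35A peak spans the start of DRC9. Of the 4, RPL35A alone had a SON peak at 6 days, with 9.46. HMGB2 peaks were found at 37 of the 78 members with an untreated SON peak (47.4%, 36.0 to 59.1%), against 37.9% of all genes with one, and at 19 of the 24 with a peak in all 3 SON lists (79.2%, 57.8 to 92.9%), against 52.4%. Of the 51 distinct HMGB2 peaks given to members, 42 overlapped an untreated SON peak, as did 72 of 73 SON peaks at 3 days and 27 of 27 at 6 days. Over the peaks at all protein-coding genes the shares were 63.6% for HMGB2, 92.9% at 3 days and 90.8% at 6 days.

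Peaks sat at the promoter. Among the 65 members in the promoter table, 62 had an untreated SON peak within 1 kb of a start (95.4%, 87.1 to 99.0%), against 42.9% of all genes. At 3 days 47 did (72.3%, 59.8 to 82.7%), against 30.4%, at 6 days 16 (24.6%, 14.8 to 36.9%), against 12.6%, and for HMGB2 26 (40%, 28.0 to 52.9%), against 16.2%. The summits lay upstream of the start. The median position was −92 bp in untreated cells (n = 62), −105 bp at 3 days (n = 47), −146 bp at 6 days (n = 16) and −105.5 bp for HMGB2 (n = 26), and 3, 2, 1 and 2 summits lay downstream. All protein-coding genes with such a peak had medians of −97, −109, −133 and −106 bp, so the place of the summit was shared with other genes. At the 26 members with both, the HMGB2 summit was a median of 19 bp downstream of the untreated SON summit (−77 to 186 bp), and 23 of the 26 pairs were within 100 bp.

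**Figure D4:**
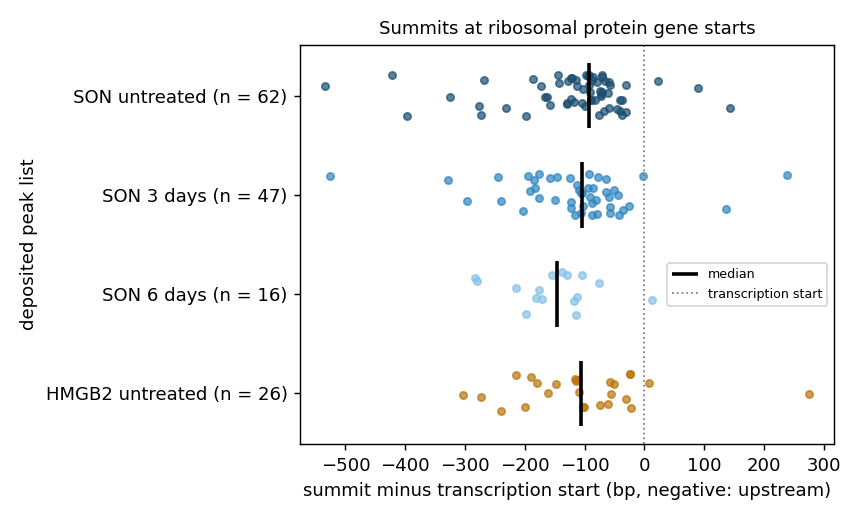
Position of the peak summit relative to the annotated transcription start (horizontal axis, bp, negative upstream) for members with a peak within 1 kb of it, by list (vertical axis), with the median as a black bar and the start as a dotted line. Medians lie between −146 and −92 bp, and 3, 2, 1 and 2 points of the lists in order are downstream of the start.

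In untreated cells the strongest SON peak lay at the gene's own start in 57 of the 62 members with a peak and an annotated start. RPS29 was one of the exceptions. Its strongest SON peak, with untreated, 3-day and 6-day −log10 p of 71.3, 52.5 and 9.42, lay 12.2 kb downstream of the annotated start, and it overlapped RN7SL1, the gene of the RNA of the signal recognition particle. Within 1 kb of the RPS29 start the untreated SON peak had 5.73, no SON peak was found at 3 or 6 days, and the HMGB2 peak had 12.6. Both of these peaks also overlapped LRR1. RPL41 likewise had no 3-day peak within 1 kb of its start, and the 3-day value of 16.1 given to it comes from a peak 1482 bp downstream that overlaps ZC3H10.

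Members without peaks were read up to the nearest one. RPL24, RPL39 and RPL10L had none in any list, and RPL10L is a copy used in the testis. The nearest untreated SON peak was 36.8 kb from RPL24, 61.3 kb from RPL39 and 1397 kb from RPL10L. The 5 kb limit mattered little for SON in untreated cells, where 77 of the 78 nearest peaks touched the gene itself and the other, at RPL3L, was 0.396 kb away. The first gene outside the limit was RPL24. For HMGB2, 9 of the 38 nearest peaks lay in the flank. The farthest inside was that of RPL35, at 4.75 kb with 14.4, and the nearest outside that of RPL10, at 8.71 kb with 7.77. At 6 days the nearest outside was that of RPLP1, at 6.43 kb with 29.0.

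Some of these peaks also lay in neighbouring genes. The strongest untreated SON peak of 21 of the 78 members overlapped another protein-coding gene, as did that of 13 of 62 at 3 days, 3 of 24 at 6 days and 13 of 38 for HMGB2. Over all protein-coding genes with a peak the shares were 31.5%, 33.8%, 30.5% and 27.5%. Without peaks that overlap another protein-coding gene, the shares of members were 71.95%, 59.8%, 25.6% and 31.7%, against 43.2%, 29.0%, 15.4% and 17.9% of all genes. RPL3L, a copy of RPL3 used in muscle, had no peak over its own span, and its strongest peak in untreated SON, 3-day SON and HMGB2 lay over MSRB1. Of the 5 copies RPL3L, RPL10L, RPL39L, RPL36AL and RPS27L, 4 had an untreated SON peak, 1 a 3-day peak, 0 a 6-day peak and 2 an HMGB2 peak. Ribosomal protein genes also have many processed copies in the genome, and how reads with several matches were treated is not given in the sources used here.

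By subunit, untreated SON peaks were at 31 of 32 small-subunit genes (96.9%, 83.8 to 99.9%) and 47 of 50 large-subunit genes (94%, 83.5 to 98.7%). At 3 days the counts were 26 (81.2%, 63.6 to 92.8%) and 36 (72%, 57.5 to 83.8%), at 6 days 7 (21.9%, 9.28 to 39.97%) and 17 (34%, 21.2 to 48.8%), and for HMGB2 14 (43.8%, 26.4 to 62.3%) and 24 (48%, 33.7 to 62.6%). The intervals of the subunits overlapped in every list.

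A snoRNA gene lay inside 29 members. Of these, 28 had an untreated SON peak, 23 a 3-day peak, 10 a 6-day peak and 11 an HMGB2 peak (37.9%, 20.7 to 57.7%). The 53 members without one had 50, 39, 14 and 27 (50.9%, 36.8 to 64.9%). The intervals overlapped, and HMGB2 peaks were no more frequent at the members that host snoRNAs. The 497 other protein-coding hosts stood at 77.7%, 63.0%, 34.2% and 32.2% in the 4 lists.

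Chromosome 19 holds 12 of the 82 members. In untreated cells all 12 had a SON peak, against 63.5% of all genes on that chromosome, and 66 of the 70 members elsewhere did, against 56.6% of the other genes. At 3 days 11 of the 12 had one, against 50.7%, and 51 of the 70, against 40.2%. At 6 days 8 of the 12 had one (66.7%, 34.9 to 90.1%), against 31.9% of all genes on that chromosome. Of the 70 elsewhere 16 did (22.9%, 13.7 to 34.4%), against 20.7% of the other genes. HMGB2 peaks were at 9 of the 12 (75%, 42.8 to 94.5%), against 27.2%, and at 29 of the 70 (41.4%, 29.8 to 53.8%), against 23%. Limited to peaks with an IDR up to 0.05, the 6-day list held 9 members, 6 on chromosome 19, among them RPL13A, RPL18, RPL28 and RPL36, and 3 elsewhere, RPL10, RPL23A and RPS12. All genes then stood at 13.2% on chromosome 19 and at 4.37% elsewhere. The 6-day intervals of the members on and off chromosome 19 did not overlap, and those for HMGB2 did.

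Each SON list gives values of 2 replicates, and how these were made is not stated. The values can therefore not be read as the spread of independent samples. The strongest peak had an identical deposited −log10 p in both, with no rounding or tolerance, for 59 of 78 members in untreated cells (75.6%), 14 of 62 at 3 days and 0 of 24 at 6 days, against 56.0%, 28.9% and 9.47% of all peaks of these lists. Whether equal values mean shared reads was not tested. At 3 days replicate 2 was higher in 42 members and replicate 1 in 6, and over all peaks replicate 2 was higher in 56.3% and replicate 1 in 14.8%. The widest gaps in untreated cells were at RPS27 (17.6 and 32.0), RPL9 (11.8 and 20.0) and RPLP2 (15.2 and 25.6). At 3 days they were at RPL36 (55.2 and 189), RPS16 (14.2 and 43.9) and RPL8 (27.6 and 84.0), and at 6 days at RPL22 (5.44 and 10.1), RPL28 (245 and 142) and RPL36 (16.9 and 28.8). RPL22 had the weakest 6-day value of the 24 members, at the largest global IDR of that list, 0.63.

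**Figure D5:**
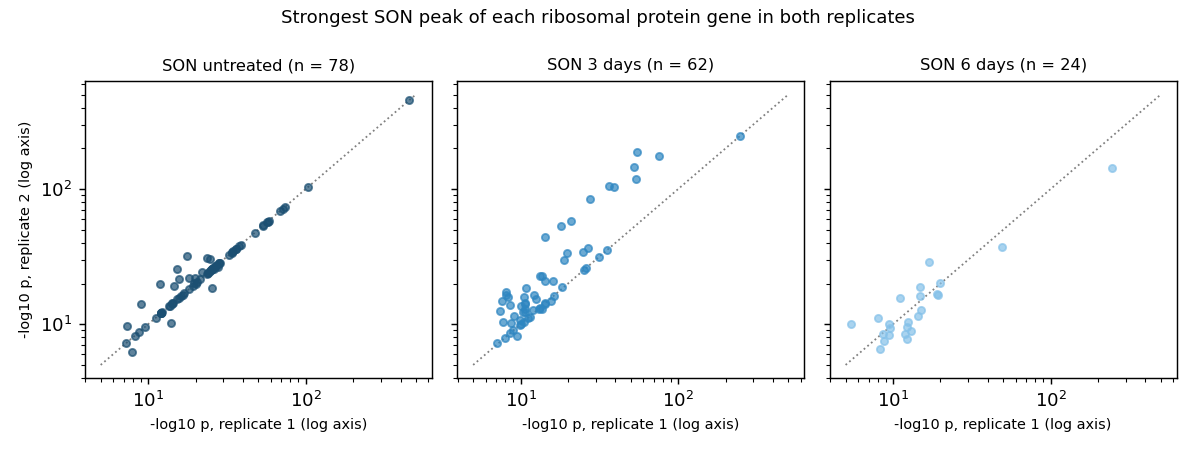
The −log10 p of the strongest SON peak of each member in replicate 1 (horizontal, log axis) and replicate 2 (vertical, log axis) of each SON list, with the line of equality dotted. In untreated cells 59 of 78 points lie on the line, and at 3 days 42 of 62 lie above it.

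Other genes of the pathway were read in the same way. Of 33 genes of ribosome biogenesis, 32 had an untreated SON peak, 28 a 3-day peak, 13 a 6-day peak and 10 an HMGB2 peak. These are 97.0%, 84.8%, 39.4% and 30.3% of the list, against 57.1%, 41%, 21.5% and 23.3% of all genes. RIOK1, a kinase of late small-subunit maturation, was the gene without one. NPM1, a chaperone of the nucleolus, had SON values of 85.1, 81.9 and 17.1 and no HMGB2 peak, and PES1, of large-subunit assembly, had 43.7, 17.4 and 14.7 and an HMGB2 value of 79.4. Of 6 ribosomal proteins and close copies whose symbols fall outside the rule, 4 had a peak in every SON list, among them FAU, RPL7L1 and RPL26L1, and RACK1 and RPL22L1 had none in any list. FAU, a fusion of a ubiquitin-like protein with a small-subunit protein, had 135, 69.4 and 23.4 and an HMGB2 value of 16.9. As a look at the cell type, 5 of 6 fibroblast genes (COL1A1, COL1A2, COL3A1, THY1 and PDGFRB, not VIM) had an untreated SON peak, but so did 1 of 3 epithelial, 1 of 3 leukocyte and 2 of 3 endothelial genes. Peaks do not measure expression, so these lists leave the labelled cell type unchecked.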

How the data were processed

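Peak lists of 4 of the 6 samples were read, 1 per group. Per the submitters' processing notes, bcl2fastq 2.17, Bowtie2, MACS2 and deepTools were used with hg38, and their roles and settings are not given. In SON lists the authors deposited −log10 p per peak and replicate, −log10 of the global IDR and its scaled score, in the layout of the IDR tool. For HMGB2 the authors deposited fold enrichment, −log10 p and −log10 q, and peak names state a q cutoff of 0.03. These are the authors' values, used only within their list. No counts were used, so depth is unknown. How the 2 replicates were made is not stated.

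Genes came from RefSeq GRCh38.p14, the assembly of hg38, and coordinates are 1-based. Peaks and genes met at 1 bp or more, and starts came from the promoter table. Members, lists and the rule for named genes (5 strongest members per list, the 10 with the highest mean percentile over all lists, members without peaks, the 3 widest replicate gaps per SON list, fixed genes) were chosen with earlier results of these data known. RPL41, RPS2, RPL3L, RPL35, RPL34, RPL37A, RPS21 and the pathway genes with values were singled out after their values were seen. Some genes that the rule names are not reported here, and they stay in all counts. No test between groups was possible. The overlap code was tested on simulated data, where 41 of 41 planted peaks inside the window and 0 of 42 outside it were called. Strand was lacking from the gene table and was taken from the promoter table. Alternatives covered the window, the threshold, list length, neighbours and members. Python 3.11.15, numpy 2.4.6, pandas 2.3.3 and scipy 1.17.1 were used.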

Additional observations from a re-analysis of the deposited data

How the results depend on the processing

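A share or median is called moved where it left the interval of the value in the report, and all alternatives were set with earlier results known. Of 105 values, 81 stayed inside and 24 moved, and none of the 5 changes of the gene window or start window moved any, nor did leaving out RPL3L, RPL10L and RPL39L. Leaving out peaks in another gene gave 71.95%, 59.8% and 31.7% for untreated SON, 3 days and HMGB2. All genes then stood at 43.2%, 29.0% and 17.9%. The stronger 50% of each list gave 86.6%, 59.8%, 19.5% and 32.9% in the 4 lists, against 41.0%, 27.3%, 12.8% and 13.7% of all genes. The 6-day share of all genes lay inside the interval of the members, 11.6 to 29.7%. At starts this setting gave 84.6% in untreated cells, 49.2% at 3 days and 26.2% for HMGB2. A global IDR of at most 0.05 gave 84.1%, 56.1% and 10.98% in the SON lists, against 45.0%, 24.0% and 5.02% of all genes. It also gave 63.8% and 13.0% found again at 3 and 6 days, 9.76% in all 4 lists and a median 6-day percentile of 93.5. At starts it gave 81.5%, 47.7% and 9.23%. Lists of equal length gave 65.9% in untreated cells and 59.8% at 3 days, against 26.2% and 27.2% of all genes. They also gave 44.4% found again at 6 days and a median untreated percentile of 90.6. These settings kept fewer peaks, and the cause of the moves was not tested. At starts, for peaks found again, for all 4 lists and for medians, values over all genes are not given for these settings. Those values therefore do not set the members apart. In every setting run the order of the shares of the SON lists, from high to low, was untreated, 3 days, 6 days. No paired analysis was possible because each group has 1 list and the result comes from no test. Leaving out replicates was not possible either. Depth is unknown and limits what a missing peak means.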

Other observations

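Several of the peaks given to ribosomal protein genes also covered non-coding genes. The strongest untreated SON peak overlapped one at 15 of the 78 members. The same share over all protein-coding genes was not computed, so this count does not set the members apart. At RPS2 the strongest peak of every list lay over SNHG9, a snoRNA host RNA, with SON values of 37.8, 14.9 and 8.40 and an HMGB2 value of 9.43. At RPLP0 the peak of every list lay over PXN-AS1, and at RPL34, RPL37A and RPS21 the untreated peak lay over the divergent transcripts RPL34-DT, RPL37A-DT and RPS21-DT, with 20.0, 15.6 and 9.49. At RPS29 the strongest SON peak lay over RN7SL1 in all 3 SON lists, and HMGB2 had no peak there.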
